A study of Mus musculus with 3 samples.

Results

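The genes described here are 9 receptors that set how strongly a T cell responds: Ctla4, Icos, Pdcd1, Tigit, Lag3, Havcr2, Tnfrsf4, Tnfrsf9 and Tnfrsf18. They were chosen by symbol, and all 9 of 9 were found among the 31253 genes of the skin matrices. Single-cell RNA counts were collected on the BD Rhapsody microwell system from skin cells enriched with CD45 beads. The RHS library came from mice given RHS and MC903, and the control library from mice given MC903 alone; the labels do not expand RHS. MC903 (calcipotriol) is a vitamin D analogue that raises atopic dermatitis-like skin inflammation, and both groups carried it. The protocol also speaks of ethanol-treated mice, but the label of each skin library gives MC903. The number of mice behind each library, their strain and their age are not stated in the labels. Each group is 1 library, so no test between groups was possible, and every interval below covers counting error only.

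T cells are activated through their antigen receptor together with costimulatory receptors. Icos, of the CD28 family, and Tnfrsf4 (OX40), Tnfrsf9 (4-1BB) and Tnfrsf18 (GITR), of the tumour necrosis factor receptor superfamily, add to that signal. Ctla4, Pdcd1 (PD-1), Tigit, Lag3 and Havcr2 (TIM-3) restrain it, and several of them appear on cells after repeated stimulation. Regulatory T cells, which hold back other T cells, are known for high Ctla4, Tnfrsf4 and Tnfrsf18 and are abundant in mouse skin.

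The RHS library held 12953 kept cells with a median of 3101 UMIs, and the control library 12577 with a median of 3233. Of these, 3573 RHS and 3067 control cells were lymphocytes, with medians of 1962 and 2121 UMIs. The 2 libraries shared 5 cell barcodes. Lymphocyte types were built without the 9 receptors and named from marker genes. There were 397 RHS and 380 control regulatory T-like cells, 731 and 648 conventional CD4 T-like cells, 1056 and 324 CD8 T-like cells, 322 and 818 interleukin 17 gamma-delta T-like cells, 103 and 110 type 2 innate lymphoid-like cells, and 175 and 191 NK-like cells. Another 44 RHS and 23 control cells were dendritic epidermal T-like, too few for ratios, and 7 of 18 lymphocyte sub-clusters stayed unnamed. Orders of levels below are over the 6 types with ratios.

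The names fitted their defining genes with some limits. Foxp3, the lineage factor of regulatory T cells, had 1171 CPM in RHS and 1225 CPM in control regulatory T-like cells (CPM: a gene's UMIs over all UMIs of the type, times 1e+06). It had at most 9.07 CPM in every other named lymphocyte type with a ratio. The gamma-delta T-like type had 2184 CPM of Trdc in RHS and 2977 CPM in control, but also Trac at 397 and 234 CPM. In 1 of its 3 sub-clusters Trac reached 772 CPM in RHS and 505 CPM in control, beside Trdc at 330 and 525 CPM. NK-like cells carried Cd3e at 95.5 CPM in RHS and 134 CPM in control, below any T cell type but above type 2 innate lymphoid-like cells at 34.6 and 22.5 CPM. They also had Trac at 170 and 167 CPM, and Trbc1 at 660 and 820 CPM. That Trbc1 level was above regulatory (289 and 322 CPM), conventional CD4 (471 and 520 CPM) and gamma-delta T-like cells (376 and 511 CPM). No NK-like type with enough cells was found at 500 genes per cell or at sub-clustering resolution 1.6.

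The receptor genes sit in small groups on the genome. In the GENCODE M21 annotation (build GRCm38) Ctla4 lies between Cd28 and Icos on chromosome 1, and Tnfrsf4 lies directly before Tnfrsf18 on chromosome 4, both on the plus strand. RefSeq promoter sequences (build GRCm38.p6) were at hand for 7 of the 9 receptors. The 250 bases before the start are shown for Ctla4, the receptor most tied to regulatory T-like cells, for the neighbours Tnfrsf4 and Tnfrsf18, and for the second start of Tnfrsf9. Capitals mark matches, on either strand and with overlaps allowed, to the NFAT core GGAAA, the AP-1 motif TGANTCA, the forkhead core TGTTTNC, the NF-kappaB motif (GGG and CC with 5 bases between) or the Runx motif TGTGGT. Ctla4 is at chr1:60908775-60909024, Tnfrsf4 at chr4:156013445-156013694, Tnfrsf9 at chr4:150927749-150927998 and Tnfrsf18 at chr4:156026072-156026321, all on the plus strand.
Ctla4: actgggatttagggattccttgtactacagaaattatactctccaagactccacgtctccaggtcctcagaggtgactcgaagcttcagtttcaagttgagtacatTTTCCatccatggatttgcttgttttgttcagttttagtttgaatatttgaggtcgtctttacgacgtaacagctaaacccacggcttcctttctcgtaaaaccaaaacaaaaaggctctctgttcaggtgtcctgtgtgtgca
Tnfrsf4: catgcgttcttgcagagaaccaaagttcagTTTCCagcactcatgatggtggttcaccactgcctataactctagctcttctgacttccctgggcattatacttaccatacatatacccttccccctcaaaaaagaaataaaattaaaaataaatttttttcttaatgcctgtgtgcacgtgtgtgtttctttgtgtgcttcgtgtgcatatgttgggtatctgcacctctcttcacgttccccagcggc
Tnfrsf9, second start: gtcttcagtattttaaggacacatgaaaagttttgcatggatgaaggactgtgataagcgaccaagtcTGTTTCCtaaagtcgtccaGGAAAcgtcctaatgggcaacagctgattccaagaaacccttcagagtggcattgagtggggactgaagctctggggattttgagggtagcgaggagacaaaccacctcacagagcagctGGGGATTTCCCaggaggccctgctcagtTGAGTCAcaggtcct
Tnfrsf18: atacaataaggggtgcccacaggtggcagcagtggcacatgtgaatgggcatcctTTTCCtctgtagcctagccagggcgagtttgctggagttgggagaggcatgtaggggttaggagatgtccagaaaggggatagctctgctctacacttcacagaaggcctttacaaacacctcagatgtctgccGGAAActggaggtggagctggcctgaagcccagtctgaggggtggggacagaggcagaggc
The Ctla4 and Tnfrsf4 windows held 1 NFAT core each and the Tnfrsf18 window 2, with none of the other motifs. The second Tnfrsf9 window held 3 NFAT cores, 1 AP-1, 1 forkhead and 2 NF-kappaB matches; the forkhead match and both NF-kappaB matches overlap NFAT cores. Of 32851 promoter windows of the same length, 55.6% held the NFAT core, 6.75% AP-1, 17.8% the forkhead core, 45.8% NF-kappaB and 14% Runx. A match is only a run of letters and says nothing of binding.

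Ctla4, which competes with Cd28 for Cd80 and Cd86, was concentrated in regulatory T-like cells. It had 2145 CPM (95% interval 2042 to 2251) in RHS and 1808 CPM (1717 to 1902) in control regulatory T-like cells. The ratio of RHS over control was 1.19 (1.11 to 1.27). A receptor was counted as higher or lower in RHS only at 1.5-fold or more on at least 50 UMIs over both libraries, and this ratio lies within that. Conventional CD4 T-like cells had 247 CPM in RHS and 255 CPM in control, and CD8 T-like cells 212 and 215 CPM; these neighbours in the order overlapped in their intervals in both libraries. The regulatory T-like level was 8.7 times that of conventional CD4 T-like cells in RHS and 7.08 times in control. With types from gates on lineage genes in place of clusters these were 4.42 and 4.56 times. An unnamed cycling cluster with Foxp3 at 484 CPM in RHS and 471 CPM in control had Ctla4 at 1190 and 969 CPM, again with a ratio above 1 (1.23, 1.13 to 1.34).

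Ctla4 was lower in RHS in gamma-delta T-like cells, where both libraries were low. There were 11 UMIs (21.1 CPM) in 322 RHS cells and 125 UMIs (84.1 CPM) in 818 control cells, a ratio of 0.251 (0.122 to 0.464). Few cells carried them: after thinning each cell to 1500 UMIs, 3.35% (1.24 to 7.15) of RHS and 5.08% (3.43 to 7.21) of control cells had a Ctla4 UMI, and 3.11% and 6.72% did without thinning. The thinned intervals overlapped. Foxp3 had 0 UMIs there in RHS and 4 in control. Within the largest gamma-delta sub-cluster, led by Il17a, the values were 33.6 and 88.5 CPM with a ratio of 0.38. In type 2 innate lymphoid-like and NK-like cells Ctla4 had at most 15 UMIs per library and no ratio is given.

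Icos, the costimulatory partner of Icosl, was present at 1647 CPM or more in 5 of the 6 types. Dendritic epidermal T-like cells had only 22 UMIs (342 CPM) in RHS and 15 UMIs (436 CPM) in control. Its order of levels was led by gamma-delta T-like cells at 4203 CPM in RHS and 4850 CPM in control. Type 2 innate lymphoid-like cells followed at 3923 and 4025 CPM, then regulatory T-like cells at 3467 and 3885 CPM and conventional CD4 T-like cells at 3342 and 3310 CPM. CD8 T-like cells stood lower at 1825 CPM in RHS and 1647 CPM in control, and NK-like cells lowest of the 6 at 437 and 581 CPM. In RHS the intervals of gamma-delta T-like and type 2 innate lymphoid-like cells overlapped, as did those of regulatory and conventional CD4 T-like cells. In control only type 2 innate lymphoid-like and regulatory T-like cells overlapped. Ratios ran only from 0.753 (0.63 to 0.897) in NK-like to 1.11 (1.04 to 1.18) in CD8 T-like cells.

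Pdcd1, the receptor of Cd274 and Pdcd1lg2, had another order, with regulatory T-like cells near the bottom. Gamma-delta T-like cells were highest at 943 CPM (862 to 1030) in RHS and 1199 CPM (1144 to 1256) in control. CD8 T-like cells had 644 and 679 CPM, type 2 innate lymphoid-like cells 504 and 514 CPM, and conventional CD4 T-like cells 408 and 498 CPM. Regulatory T-like cells had 185 CPM in RHS and 262 CPM in control, and NK-like cells 325 and 252 CPM. Those last types thus changed places between libraries: NK-like cells were above regulatory T-like cells in RHS, while the control values overlapped. The ratio was lowest in regulatory T-like cells, 0.706 (0.567 to 0.877), and highest in NK-like cells, 1.29 (1.02 to 1.62).

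Within the CD4 and gamma-delta types Pdcd1 differed by sub-cluster. Conventional CD4 T-like cells led by Ccl1 and Penk had 849 CPM in RHS and 823 CPM in control, against 227 and 286 CPM in those led by Hdc and Il4. An unnamed Cd8a sub-cluster with Ccr7 and Cd101 reached 1135 CPM in RHS and 994 CPM in control. The Il17a sub-cluster of gamma-delta T-like cells had 1246 and 1412 CPM, and the one with both Trac and Trdc 500 and 729 CPM.

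Tigit and Lag3, 2 inhibitory receptors that bind Pvr and MHC class II, were scarcely detected. Tigit had 26.1 CPM (20 UMIs) in RHS and 41.5 CPM (34 UMIs) in control regulatory T-like cells, its highest level in both libraries. CD8 T-like cells had 19.6 and 17.8 CPM and conventional CD4 T-like cells 14.9 and 15.5 CPM, and every pair of neighbours overlapped in its intervals. The regulatory T-like ratio of 0.629 passed the 1.5-fold line, but its interval of 0.343 to 1.12 included 1, and with gates it was 0.741. Lag3 had 40 UMIs in all RHS cells and 56 in all control cells, at most 3 UMIs in any lymphocyte type and library, and no ratio in any type. In all lymphocytes it had 12 UMIs in RHS and 8 in control, and at this depth a difference between lymphocyte types or libraries was not detectable. Outside the lymphocytes it had 28 and 48 UMIs, a ratio of 0.614 (0.371 to 0.999).

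Havcr2, an inhibitory receptor first found on interferon-producing T cells and also borne by myeloid cells, was higher in several myeloid types than in any of the 6 lymphocyte types. It had 449 CPM in RHS and 499 CPM in control basophil-like cells, 428 and 472 CPM in Langerhans-like cells, and 325 and 335 CPM in cDC1-like cells. Monocyte-like cells had 236 CPM in RHS and 202 CPM in control. Ratios in these 4 types ran from 0.9 to 1.17. Among the 6 lymphocyte types regulatory T-like cells were highest, at 185 and 177 CPM, with a ratio of 1.05 (0.825 to 1.33). Dendritic epidermal T-like cells were above them at 404 CPM (264 to 592) in RHS and 320 CPM (160 to 572) in control, on 26 and 11 UMIs, with the control intervals overlapping.

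In conventional CD4 T-like cells Havcr2 was lower in RHS, at 94.4 CPM (79.4 to 111) against 163 CPM (143 to 184) in control, a ratio of 0.58 (0.468 to 0.717). This type joins 3 sub-clusters that differ in both Havcr2 and size. The Ccl1 and Penk cells, with 253 CPM in RHS and 353 CPM in control, numbered 96 and 157. The Plac8 cells, with 41.9 and 80.6 CPM, numbered 369 and 230. The ratios within sub-clusters were 0.715 for Ccl1 and Penk, 0.519 for Plac8 and 0.836 for Hdc and Il4. Only the Plac8 value passed the 1.5-fold line, and the part of the cell mix in the joined ratio was not tested. The joined ratio missed the line at 0.682 with 500 genes per cell, 0.675 at resolution 0.6 and 0.672 with gates. Gamma-delta T-like cells had 15 UMIs in RHS and 78 in control, a ratio of 0.548 (0.293 to 0.96). That direction was not stable: the ratio turned to 1.74 with gates, missed the line at 0.676 to 0.773 under 4 other alternatives, and in the Il17a sub-cluster was 0.613 with an interval that included 1 (0.29 to 1.18).

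Tnfrsf4, the receptor of Tnfsf4, was almost confined to CD4 lineage types among the 6 lymphocyte types. Regulatory T-like cells had 799 CPM (737 to 865) in RHS and 1115 CPM (1044 to 1190) in control, a ratio of 0.717 (0.646 to 0.795). Conventional CD4 T-like cells had 359 CPM (329 to 391) and 452 CPM (419 to 486), a ratio of 0.795 (0.709 to 0.892). Neither ratio passed 1.5-fold. CD8 T-like cells had 11.6 CPM in RHS and 11.9 CPM in control, below keratinocyte-like cells at 29 and 27.9 CPM. Keratinocyte-like cells had a ratio of 1.04 (0.755 to 1.42), on 69 and 106 UMIs. An unnamed cycling sub-cluster had 85.1 CPM in RHS and 241 CPM in control, a ratio of 0.353 (0.255 to 0.482). Its lineage genes moved too, with Cd4 at 156 and 440 CPM and Cd8a at 820 and 545 CPM, and their part in that ratio was not tested.

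Tnfrsf9, the receptor of Tnfsf9 and a mark of recent T cell activation, was highest in regulatory T-like cells at 2089 CPM in RHS and 2609 CPM in control. Gamma-delta T-like cells came second at 1158 and 1680 CPM, and CD8 T-like cells last at 420 and 414 CPM. NK-like, conventional CD4 and type 2 innate lymphoid-like cells lay between, at 815 to 902 CPM in RHS and 878 to 1100 CPM in control. Its ratio was below 1 in 4 of 6 types and passed 1.5-fold in none, the lowest being that of gamma-delta T-like cells (0.689, 0.63 to 0.754). In that type the Il17a sub-cluster numbered 180 RHS and 542 control cells. The sub-cluster with both Trac and Trdc numbered 114 and 213, and the part of this mix was not tested. CD8 T-like and NK-like cells had ratios of 1.01 and 1.03. Outside lymphocytes, migratory dendritic-like cells had 466 CPM in RHS and 427 CPM in control.

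**Figure D1:**
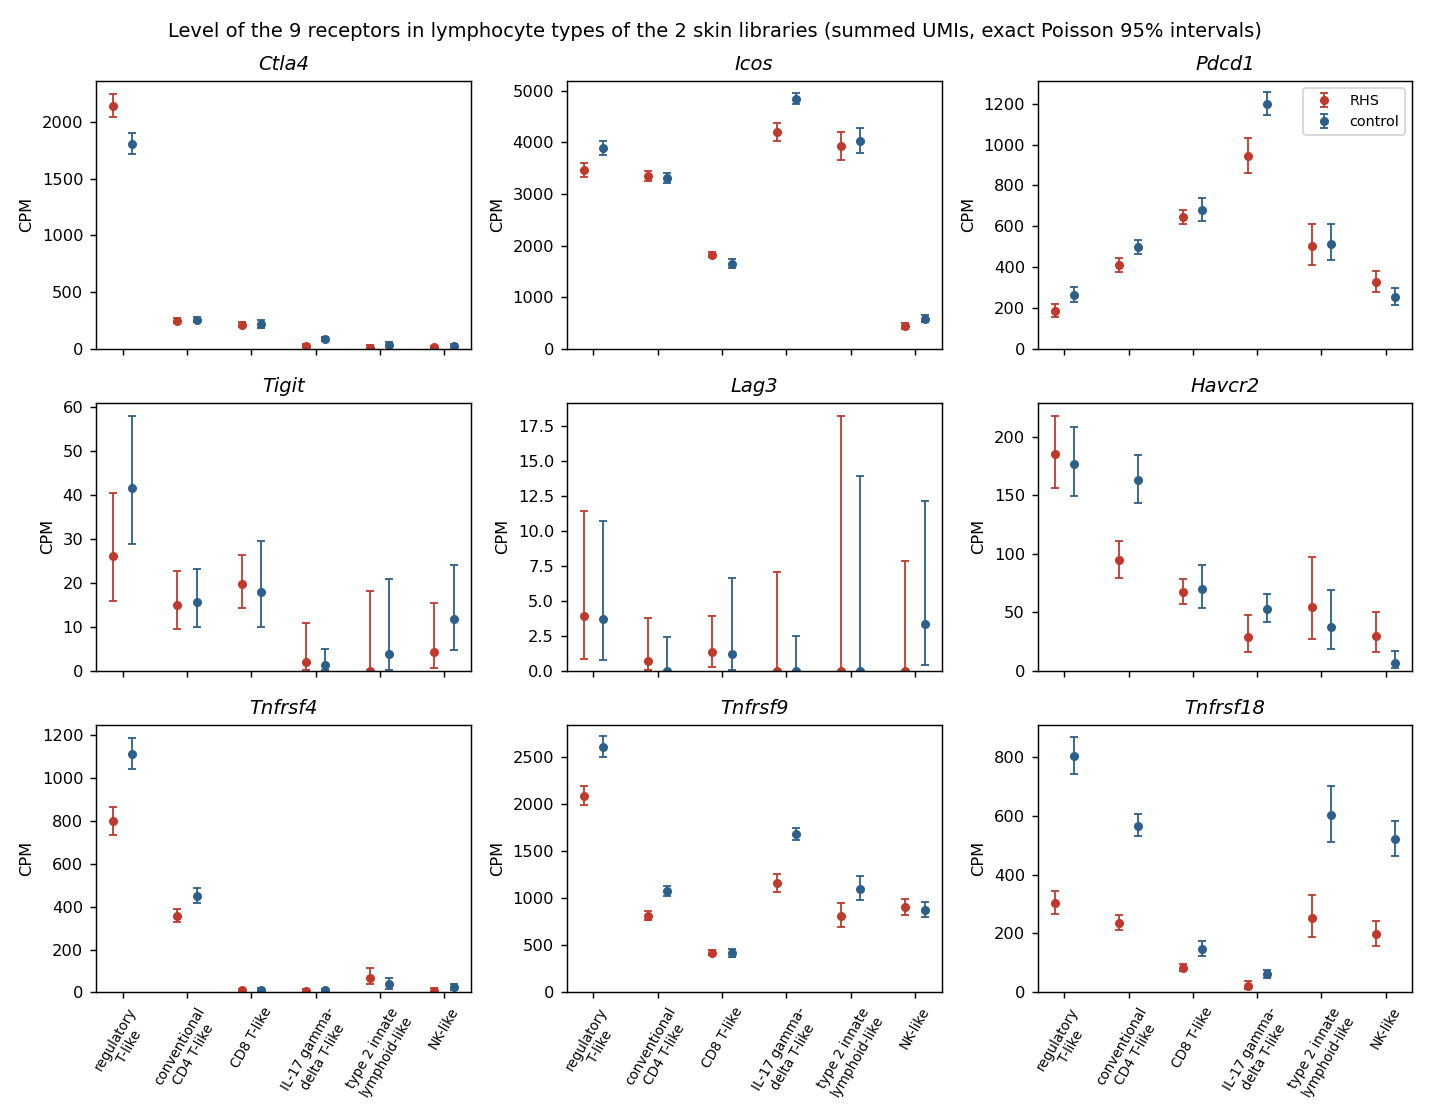
Level in CPM of each of the 9 receptors (panels, each with its own linear axis) in 6 lymphocyte types of the RHS and control libraries. Points are summed UMIs and bars exact Poisson 95% intervals; Ctla4 stands out in regulatory T-like cells at 2145 CPM in RHS and 1808 CPM in control, and Tnfrsf18 is lower in RHS in every type.

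Tnfrsf18, the receptor of Tnfsf18, was lower in RHS in all 6 lymphocyte types. Regulatory T-like cells had 302 CPM (265 to 344) in RHS and 801 CPM (741 to 865) in control, a ratio of 0.377 (0.324 to 0.439). Conventional CD4 T-like cells had 237 and 566 CPM, type 2 innate lymphoid-like cells 252 and 601 CPM, and NK-like cells 197 and 519 CPM, with ratios of 0.419, 0.419 and 0.38. In each of these 4 types the RHS interval lay below the control interval. CD8 T-like cells had 83 CPM in RHS and 147 CPM in control, the ratio nearest to 1 at 0.564 (0.447 to 0.714). Gamma-delta T-like cells had 12 UMIs (23 CPM) and 91 UMIs (61.2 CPM), a level close to that of keratinocyte-like cells at 26.9 and 49 CPM. Its sub-cluster with both Trac and Trdc held 7 of the 12 RHS and 59 of the 91 control UMIs. The order of the types was the same in both libraries, but part of it was not resolved. In RHS the intervals of neighbours overlapped from regulatory T-like through type 2 innate lymphoid-like and conventional CD4 T-like to NK-like cells. In control they overlapped from type 2 innate lymphoid-like to NK-like cells.

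The share of cells with a Tnfrsf18 UMI showed the same direction after each cell was thinned to 1500 UMIs. It was 30.3% of 218 RHS and 65.1% of 258 control regulatory T-like cells, where 179 and 122 shallower cells were left out. Without thinning the shares were 39% and 72.6%. In conventional CD4 T-like cells it was 27.7% in RHS and 53.6% in control after thinning, with 196 and 109 cells left out, and 32.7% and 62.5% without. Keratinocyte-like cells (median 4962 and 5124 UMIs) had 3.68% in RHS and 7.21% in control after thinning, and 12.4% and 21% without. The thinned gamma-delta T-like shares, 3.91% (1.59 to 7.89) in RHS and 7.36% (5.35 to 9.81) in control, were near these, and their intervals overlapped. So did those of CD8 T-like cells, at 11.4% (9.36 to 13.7) in RHS and 16.6% (12.5 to 21.2) in control after thinning. Endothelial-like cells had 0.283% in RHS and 0 of 331 cells in control, which allows a share of up to 0.906%.

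The lower Tnfrsf18 level in RHS was not particular to lymphocytes. It was past 1.5-fold lower in all 19 of the 19 clusters of the whole skin data in which it had at least 50 UMIs, with ratios of 0.138 to 0.631. Of 4675 genes with that many UMIs in at least 15 clusters, 0.406% were lower in every one. In keratinocyte-like cells the ratio was 0.548 (0.406 to 0.732), in migratory dendritic-like cells 0.378 (0.228 to 0.6) and in Langerhans-like cells 0.353 (0.207 to 0.581). The lowest ratio, 0.138, came from a sub-cluster of 94 RHS and 28 control cells led by Cd207 and class II genes. Foxp3 there was at 94 CPM in RHS and 308 CPM in control and Cd8a at 410 and 213 CPM, and the part of this mix was not tested. Summed over all cells outside the lymphocytes, Tnfrsf18 had 5.01 CPM in RHS and 15 CPM in control.

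**Figure D2:**
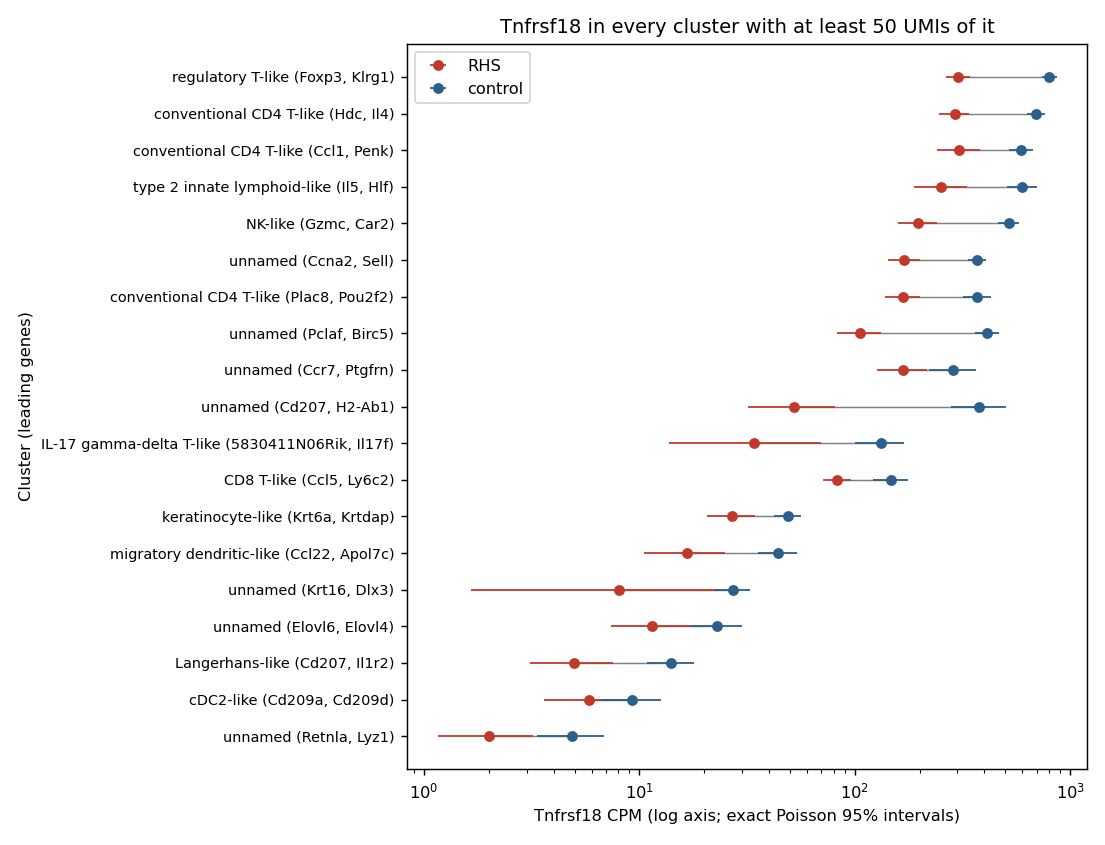
Tnfrsf18 level (CPM, log axis) in RHS and control for each cluster with at least 50 UMIs of the gene, named by type and 2 leading genes, with exact Poisson 95% intervals. In all 19 clusters the RHS point lies left of the control point, from regulatory T-like cells at 302 and 801 CPM down to an unnamed Retnla cluster at 2 and 4.88 CPM.

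Few other genes were lower in RHS in every lymphocyte type. Of 1450 genes with at least 50 UMIs in all 6 lymphocyte types, 1.03% were at least 1.5-fold lower in RHS in every type, which is 15 genes, and 0% were higher in every type. Beside Tnfrsf18 these were 7 ribosomal protein genes (Rpl28, Rps15, Rpsa, Rpl14, Rpl19, Rpl8 and Rps14), Eef2, Syf2, Fosb, Bsg, Anxa6, Crip1 and Hcls1, named after their values were seen. Ribosomal protein genes were 78 of the 1450. Rps15, a part of the small ribosomal subunit, had ratios of 0.297 to 0.368 over the 6 types, and Tnfrsf18 of 0.376 to 0.564. Over the 6 types 8 to 10 of 78 to 80 ribosomal protein genes were lower and 0 higher; in regulatory T-like cells that was 12.5%, beside 6.09% of all genes. Their median ratio ran from 0.928 in NK-like to 1.04 in CD8 T-like cells. Outside the lymphocytes 13 of 82 were lower, with a median of 0.891.

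The base composition of transcripts moved with these ratios. The 15 genes had a median GC content of 55.3%, against 48.1% over all 1450. Tnfrsf18 itself has 55.7% GC over its longest coding transcript in GENCODE M21. In regulatory T-like cells the median ratio was 1.04 over 1360 genes under 45% GC, of which 2.72% were past 1.5-fold lower, and 0.847 over 67 genes of at least 60% GC, of which 25.4% were. Among 720 genes within 2 percentage points of Tnfrsf18 the median ratio was 0.944 and 11.5% were lower. Over the 6 types the median ratio of genes of at least 60% GC ran from 0.834 to 0.917. The share of them that was lower ran up to 28.8% in gamma-delta T-like cells. It was only 6.67% of 15 genes in type 2 innate lymphoid-like cells, beside 7.53% of all genes there. Summed markers of keratinocytes, 8 genes, were lower in RHS in 5 of 6 types, at 48.9 to 104 CPM in RHS and 36.7 to 120 CPM in control. With the keratinocyte-like level subtracted, Tnfrsf18 was lower in the 5 types other than gamma-delta T-like cells. The RHS level of gamma-delta T-like cells was below that of keratinocyte-like cells and gives no ratio. The subtracted level, 26.9 CPM in RHS and 49 CPM in control, was above endothelial-like cells at 1.83 and 2.22 CPM. How much of the subtracted level is free RNA was not tested. The median ratio of genes of like GC ran from 0.934 in CD8 T-like to 0.956 in type 2 innate lymphoid-like cells. Dividing by it left Tnfrsf18 past 1.5-fold lower in all 6 types. So small a shift could not have done otherwise, so this is no check on composition. Whether composition has a part in the Tnfrsf18 difference was not tested. Tnfrsf4, at 55% GC, is as rich, while Ctla4 has 42.6% and Icos 43%.

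**Figure D3:**
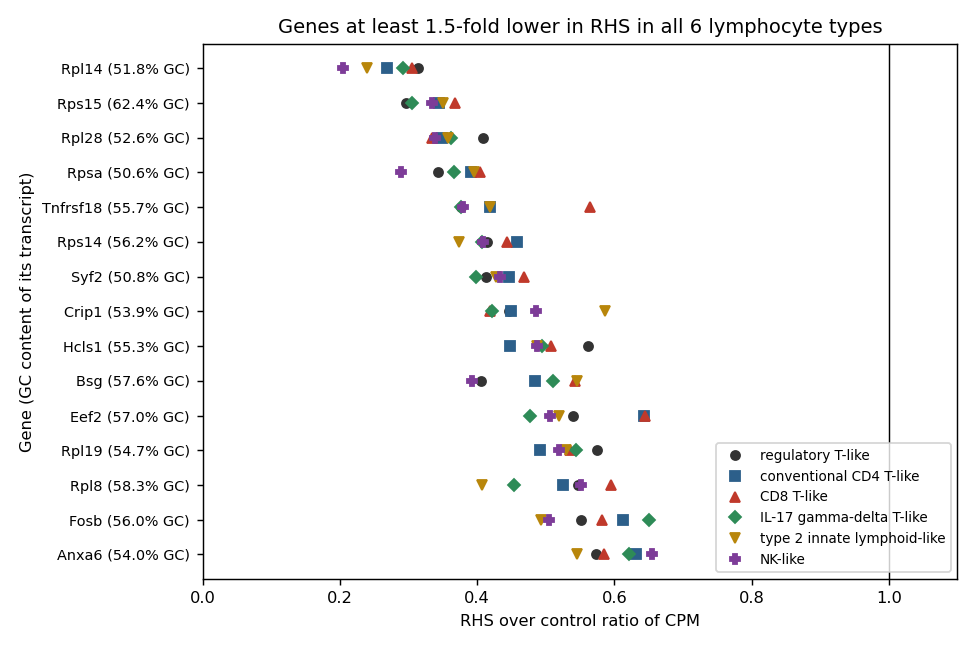
RHS over control ratio (linear axis) in 6 lymphocyte types for the 15 genes that were at least 1.5-fold lower in each, with the GC content of each transcript. Tnfrsf18 ranges from 0.376 to 0.564 and lies among ribosomal protein genes such as Rps14 and Rpsa.

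The neighbours of Tnfrsf18 differed in their ratios. Tnfrsf4, directly before it, had 208 CPM in RHS and 319 CPM in control over all lymphocytes, a ratio of 0.654 (0.614 to 0.695), and 6.91 and 11.2 CPM outside them, a ratio of 0.615 (0.532 to 0.711). The mix of types in these sums differs between libraries. Ttll10, the next gene after, had 3 UMIs in RHS and 15 in control outside the lymphocytes and 0 within them. Sdf4, the next protein-coding gene before Tnfrsf4, had 218 CPM in RHS and 257 CPM in control over all lymphocytes, a ratio of 0.847. Outside them Sdf4 had 80.7 and 77.1 CPM, a ratio of 1.05 (0.999 to 1.1). Gm16008, annotated on the other strand over Tnfrsf18, had 2 UMIs in each library's lymphocytes. Camta1, annotated on the other strand over Tnfrsf9, had 42.1 CPM in RHS and 38.3 CPM in control lymphocytes; no source used here says whether counting used strand.

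Counted by type, 36 receptor and type pairs had at least 50 UMIs, 10 of them were lower in RHS by at least 1.5-fold and 0 were higher; 6 of the 10 were Tnfrsf18. In regulatory T-like cells 2 of 8 receptors were lower (Tnfrsf18 and Tigit), beside 6.09% of all genes measured there lower and 3.87% higher. In conventional CD4 T-like cells 2 of 7 were lower (Tnfrsf18 and Havcr2), beside 4.9% lower and 3.86% higher. In gamma-delta T-like cells 3 of 6 were lower (Tnfrsf18, Ctla4 and Havcr2), beside 8.38% lower and 4.87% higher. Only Tnfrsf18 was lower in the other types: 1 of 7 in CD8 T-like cells beside 6.24% lower and 4.25% higher, 1 of 4 in type 2 innate lymphoid-like cells beside 7.53% lower and 6.56% higher, and 1 of 4 in NK-like cells beside 6.01% lower and 5.06% higher. The median receptor ratio per type ran from 0.619 in gamma-delta T-like to 0.987 in CD8 T-like cells, while the median over all genes lay between 0.994 and 1.02.

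**Figure D4:**
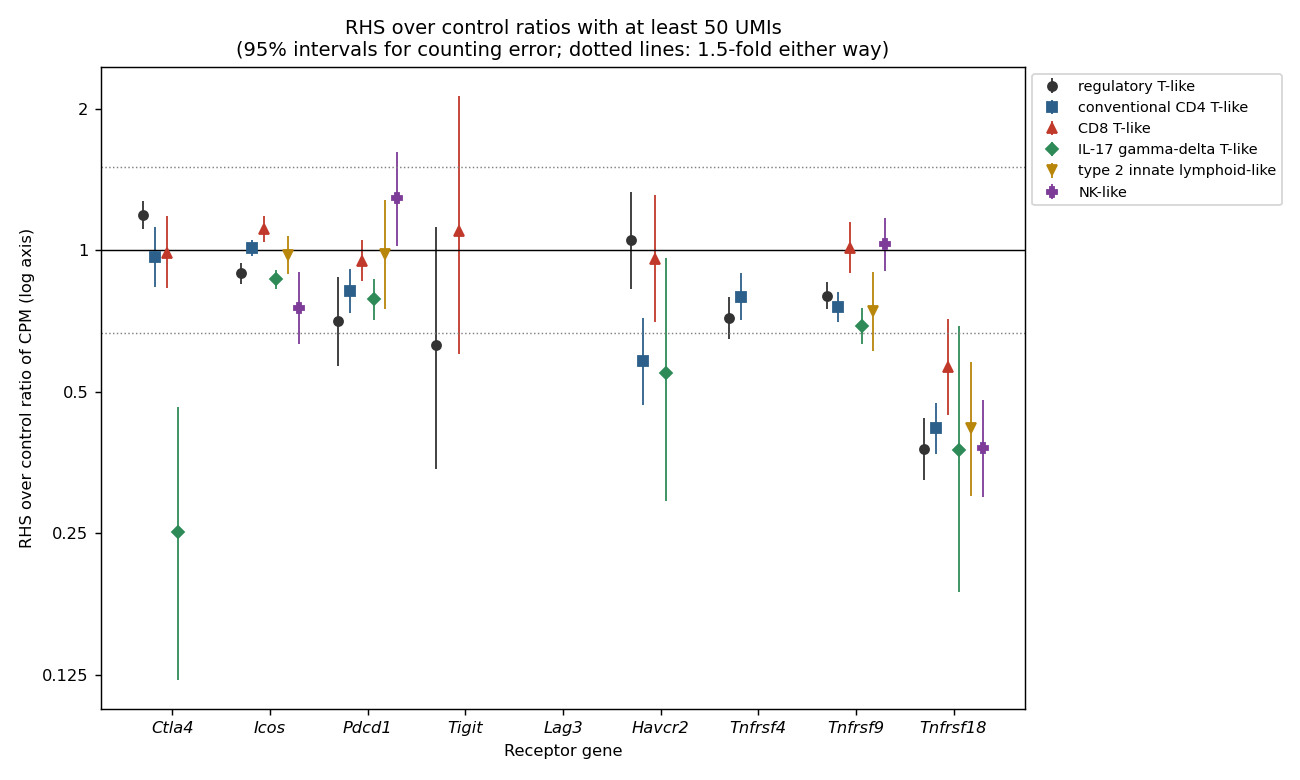
RHS over control ratio of CPM (log axis) for each receptor in each lymphocyte type with at least 50 UMIs, with 95% intervals for counting error and dotted lines at 1.5-fold either way. All 6 Tnfrsf18 points and 4 others (Ctla4 and Havcr2 in gamma-delta, Havcr2 in conventional CD4, Tigit in regulatory T-like cells) lie below the lower line; Lag3 has no point.

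Single cells carried several of the receptors at once. After thinning to 1500 UMIs, 64.2% (57.5 to 70.6) of RHS and 78.7% (73.2 to 83.5) of control regulatory T-like cells had a UMI of at least 4 of the 9. Conventional CD4 T-like cells followed with 30.8% and 42.1%, and CD8 T-like cells had 9.68% and 10.3%. Without thinning the regulatory T-like shares were 69.5% in RHS and 81.6% in control. Keratinocyte-like cells had 0 of 353 in RHS and 0 of 499 in control, which allows shares of up to 0.85% and 0.601%, and at least 1 receptor was seen in 10.5% and 13.2% of them. Leaving Tnfrsf18 out, the shares with at least 4 receptors were 59.2% in RHS and 64% in control regulatory T-like cells, and 23.9% and 23.7% in conventional CD4 T-like cells, and the intervals of the libraries overlapped in both types.

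**Figure D5:**
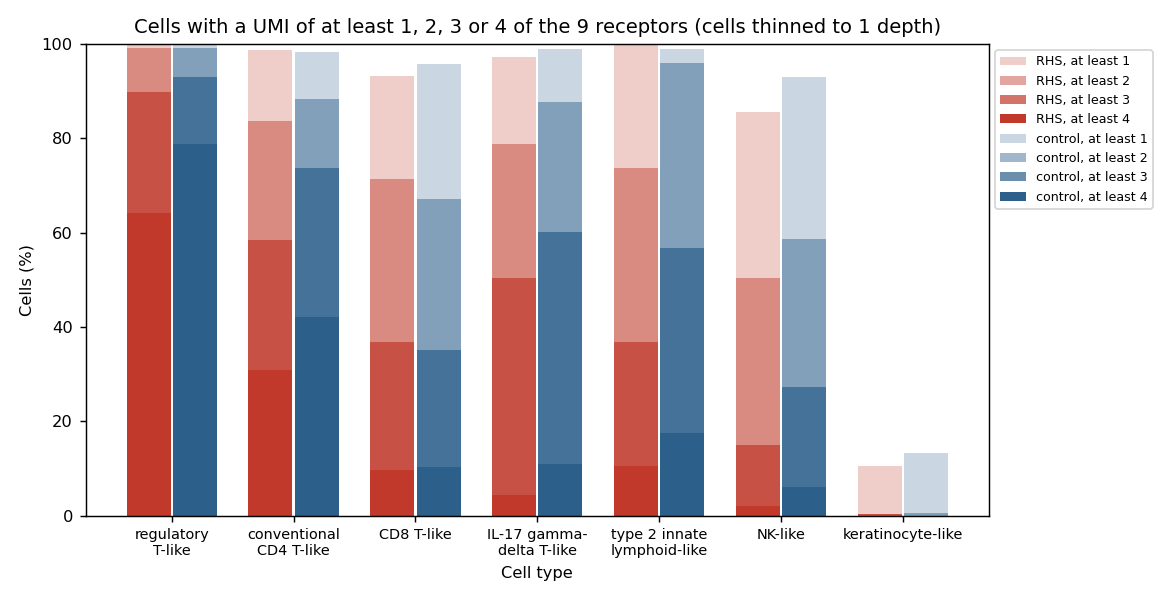
Share of cells (%) with a UMI of at least 1, 2, 3 or 4 of the 9 receptors by type, each cell thinned to 1500 UMIs, RHS bar left of the control bar and darker shades for more receptors. Regulatory T-like cells reach 64.2% and 78.7% for at least 4, keratinocyte-like cells 0%.

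Detection of receptors together was compared within types, some of which join sub-clusters. Of 248 comparisons of 1 receptor between cells with and without a UMI of another, 28 had intervals that did not overlap, and in all 28 the share was higher in the cells with the other receptor. The other 220 overlapped. No share for pairs of other genes is given to set beside these counts, so they are not read as a trait of the receptors. Each pair was entered in both directions; as pairs, 15 of 124 had such a difference. In regulatory T-like cells Tnfrsf4 was found in 60% of Tnfrsf9-positive and 33.3% of Tnfrsf9-negative RHS cells, and in 71.8% and 41.9% of control cells. In gamma-delta T-like cells Pdcd1 was found in 74.8% of cells with and 45.6% of cells without Tnfrsf9 in RHS, and in 76.8% and 56.3% in control. Sub-clusters differ in both genes. Within the Trac and Trdc sub-cluster alone the Pdcd1 shares were 62.5% with and 28.6% without Tnfrsf9 in RHS. In control they were 57.7% (47.3 to 67.7) and 42.9% (31.6 to 54.6), with overlapping intervals. In the larger Il17a sub-cluster the control shares were 82.9% (78.2 to 86.9) and 69.1% (57.9 to 78.9), which also overlapped. These are descriptions of cells that share a library.

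Across 20 skin types in both libraries (40 points, which share 2 libraries) most of the receptors varied together. Havcr2 did not vary with Icos or Pdcd1, and Lag3 was too scarce for its correlations to be read. Icos and Pdcd1 were most alike, with a Pearson correlation of log2(CPM + 10) of 0.96, and Icos and Tnfrsf9 came next at 0.88. Icos and Pdcd1 were both low outside the lymphocytes, so their value mainly sets lymphocyte types apart from the rest. Among lymphocytes they differed: regulatory T-like cells had Icos at 3467 and 3885 CPM but Pdcd1 at 185 and 262 CPM. Of the genes named next, Cd5, Cd6, Trbc1, Il2ra, Gata3 and Izumo1r were also markers used to name types. Havcr2 correlated with each other receptor at 0.31 or less. The genes most like Ctla4 were Cd5 (0.931), Slamf6 (0.922) and Cd6 (0.921), and those most like Icos were Pdcd1 (0.963), Camk4 (0.961) and Xlr4a (0.959). Pdcd1 was nearest Sh2d2a (0.974), Camk4 (0.973) and Trbc1 (0.968), and Tnfrsf9 nearest Il2ra (0.931), Satb1 (0.887) and Tomm34 (0.884). Tnfrsf18 went with Gata3 (0.899), Cd27 (0.896) and Ptprcap (0.89), and Tnfrsf4 with Neb (0.874), Izumo1r (0.873) and Ermn (0.861). Havcr2 was nearest Il10ra (0.802), Snx20 (0.793) and Cd53 (0.788), and Tigit nearest Gpr174 (0.888), Sv2c (0.854) and Ccdc92 (0.844). For Lag3, at a few UMIs per type, the highest values were 0.598 (Hipk2), 0.537 (Poli) and 0.527 (Lclat1), and nothing is read from them.

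The ligands were looked at in antigen-presenting cells, from a list of 16. Cd80 and Cd86, which bind Ctla4 and Cd28, were present in all 6 types; Cd86 had 494 CPM in RHS and 427 CPM in control migratory dendritic-like cells, and 482 and 576 CPM in cDC2-like cells. Cd274 (PD-L1) had 484 and 491 CPM in migratory dendritic-like cells, its highest level. Of 63 ligand and type pairs with at least 50 UMIs, 1 was higher in RHS and 3 were lower, 6.35% in either direction. Over all genes the share past 1.5-fold in either direction was 9.64% in cDC2-like, 11.6% in cDC1-like, 10.6% in migratory dendritic-like, 9.02% in Langerhans-like, 10.1% in macrophage-like and 11.2% in monocyte-like cells.

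The ligands past the line were Nectin2, a ligand of Tigit, in macrophage-like cells (4.45 CPM in RHS, 2.37 CPM in control), Tnfsf9 in cDC1-like cells (45.4 and 76.4 CPM), Lgals9, a reported Havcr2 ligand, in monocyte-like cells (43.6 and 71.3 CPM) and Tnfsf4 in migratory dendritic-like cells. Tnfsf4, the partner of Tnfrsf4, had at most 4.23 CPM in the other 5 of these types; migratory dendritic-like cells had 64.4 CPM in RHS and 99.2 CPM in control, a ratio of 0.649 (0.501 to 0.834). NK-like cells also carried it, at 63.7 and 81.8 CPM. Tnfsf18, the partner of Tnfrsf18, had at most 2.14 CPM in any of the 6 types, so no ratio is given.

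Of 12 related receptors, 36 pairs with the 6 lymphocyte types were measured, of which 1 was higher in RHS (2.78%) and 0 were lower, where per type 3.86% to 6.56% of all genes were higher and 4.9% to 8.38% lower. The higher one was Cd27, a costimulatory relative of Tnfrsf9, in gamma-delta T-like cells (47.9 CPM in RHS and 23.6 CPM in control). Of 54 pairs with 13 adaptors and phosphatases 3 (5.56%) were higher and 6 (11.1%) lower, led by Bcl2l1, a survival gene, in gamma-delta T-like cells (59.4 and 106 CPM) and regulatory T-like cells (41.7 and 74.4 CPM). Ptpn22, a phosphatase that damps antigen receptor signals, had 222 CPM in RHS and 379 CPM in control type 2 innate lymphoid-like cells, and Relb in NK-like cells had 53.1 and 86.8 CPM. Of 73 pairs with 18 transcription factors 7 (9.59%) were higher and 8 (11%) lower. The most extreme were Ikzf2 in type 2 innate lymphoid-like cells (98.8 and 237 CPM) and in conventional CD4 T-like cells (36 and 69.3 CPM), Nr4a2 in CD8 T-like cells (135 and 71.2 CPM) and Nfatc1 in gamma-delta T-like cells (69 and 37.7 CPM). The list medians per type ran from 0.936 to 1.32 for related receptors, 0.794 to 1 for adaptors and phosphatases and 0.896 to 1.04 for transcription factors.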

How the data were processed

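The deposited skin matrices hold raw counts (UMIs per gene and barcode), whole numbers with no normalization by the authors. The submitters' processing notes name Cell Ranger, Seurat 5.1.0, R 3.6.0 and the build GRCm39, without saying what each did. No source used here says which program called barcodes or whether doublets or free RNA were removed. The ganglia library was not used. The RHS library held 13339 barcodes and 52762575 UMIs, and the control library 12979 and 55200785.

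Barcodes under 200 genes or over 20% mitochondrial UMIs were dropped. Scrublet (scanpy 1.11.5, expected share 6%) removed 115 RHS and 146 control cells (0.88% and 1.15%), so some doublets are likely to remain. The libraries were clustered together without integration on 2000 variable genes (30 principal components, 15 neighbours, Leiden at resolution 1.0). The 9 receptors, the 16 ligands, the 12 related receptors and the variable, diversity and joining segments of antigen receptors were left out of these genes. Clusters with at least 5 of 10 T cell markers, or NK or innate lymphoid ones, were sub-clustered at resolution 1.0. Names came from marker lists; a name needed at least 3 markers present and a minimum mean log2 ratio over the other clusters.

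Counts were summed per type and library, giving CPM with exact Poisson 95% intervals. Each RHS over control ratio, with a 95% interval from the exact conditional binomial, was given for types of at least 50 cells per library. A ratio was called at 1.5-fold either way with at least 50 UMIs over both libraries. Shares, also those of 0, had exact Clopper-Pearson 95% intervals. Cells are not replicates, so no p-value is given. The ratio code was tested on simulated data. The receptors, lists and marker genes were chosen with earlier results of these data known. Named genes were the 9 receptors, the 3 genes most like each and, of each list, up to 4 with the most extreme ratios, the ligands being taken from antigen-presenting types. Beside 13 alternatives, 2 more were chosen after seeing the data. Transcript GC came from the longest coding transcript of GENCODE M21 (GRCm38), matched by gene ID. Other tools were matplotlib 3.10.9, igraph 0.11.9, scipy 1.17.1, numpy 2.4.6, anndata 0.12.19, scikit-learn 1.9.0, pandas 2.3.3 and Python 3.11.15.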

Additional observations from a re-analysis of the deposited data

How the results depend on the processing

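No paired analysis was possible because each group is 1 library, and none could be left out. Tnfrsf18 was at least 1.5-fold lower in RHS in every type with a value under every alternative to the ratios, except that subtracting the keratinocyte-like level left no RHS value in gamma-delta T-like cells; the gates on lineage genes gave values in 4 types, and 500 genes per cell, resolution 1.6 (both without NK-like cells), 200 UMIs and the largest sub-cluster in 5. Gates gave 6 lower calls, of which 5 were among the 8 main ones with a value, 1 higher call and a Havcr2 ratio of 1.74 in gamma-delta T-like cells. A minimum of 200 UMIs gave 6 lower calls, and one of 20 UMIs gave 1 higher call. Division by median ratios (0.994 to 1.02 over all genes, 0.934 to 0.956 over genes of like GC) could hardly move a Tnfrsf18 ratio. The Ctla4 level of regulatory over conventional CD4 T-like cells was 10.9 in RHS and 8.83 in control with 500 genes per cell, 10.7 in RHS with at most 10% mitochondrial UMIs, 8.02 in control at resolution 0.6, and 4.42 and 4.56 with gates. With the largest sub-cluster alone, chosen after seeing the data, it was 7.36 and 5.99. The cause of these moves was not tested. Of 488 values of single receptors under the alternatives, 467 moved by less than counting error, 20 by more and 1 changed direction. The UMI minimums change which ratios are listed and not the ratios, and the other settings reuse cells of the same 2 libraries. The tally is thus no measure of how stable the values are. Receptors under 50 UMIs, Lag3 in every type, could not be compared.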

Other observations

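Dendritic epidermal T-like cells, too few for a ratio at 44 RHS and 23 control cells, had 26 UMIs of Havcr2 (404 CPM) in RHS and 11 UMIs (320 CPM) in control. Tnfrsf18 had 5 UMIs in each library there.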
